A study of Homo sapiens with 6 samples.

Results

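The miR-181 family was followed in small RNA-seq of K562 cells through its 9 mature arms, taken by name from the count lists, hsa-miR-181a-5p, hsa-miR-181a-3p, hsa-miR-181a-2-3p, hsa-miR-181b-5p, hsa-miR-181b-3p, hsa-miR-181c-5p, hsa-miR-181c-3p, hsa-miR-181d-5p and hsa-miR-181d-3p (written below without the prefix for human). They are 9 of 2596 microRNA rows and of 28846 small RNA rows in all. K562 is an established human erythroleukemia cell line that can differentiate towards erythroid or megakaryocytic cells. The control cells received the empty lentiviral vector SIEW, which expresses GFP only, and the RUNX1 cells received SIEW RUNX1, which expresses human RUNX1 and GFP, in 3 independent transductions each. RNA of both groups was taken after 10 days in culture and 1000 ng entered each library. RUNX1 is a transcription factor of megakaryocytic and erythroid differentiation, and the comparison asks which microRNAs change upon its over-expression. RUNX1 mRNA is not among the small RNAs counted, so the over-expression could not be checked in these data.

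A microRNA is cut from a hairpin that can release an arm from its 5′ side (5p) and one from its 3′ side (3p). Bases 2 to 8 of the loaded arm, the seed, pair with target mRNAs, so arms with the same seed can reach overlapping targets. The miR-181 family is known from hematopoiesis, where miR-181a favours B-lymphoid differentiation and tunes the sensitivity of T-cell receptor signalling. Its hairpins lie in paired genes at several loci, and the 5p arms have nearly the same sequence at each.

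Total counts were between 1618248 and 6193319 with the empty vector and between 7918551 and 15245007 with RUNX1, so that 3 counts, taken as the floor, stood for 0.197 to 1.85 CPM (the count scaled to a library of 1e+06 counts, here before any TMM factor). MicroRNAs took 81.4 to 82.1% of the counts with the empty vector and 89.5 to 91.9% with RUNX1. The chi-square per degree of freedom between replicates was 9.62 to 56.3, and 314 and 451 in the pairs that hold RUNX1 replicate 3, where sampling noise alone gives about 1. This library stood apart, and the values without it are given with those of the scalings and after the ratios. The names of the RUNX1 libraries give replicates 1 and 2 the same number, while the sample titles, followed here, number them apart. The study describes independent triplicates, and what the shared number stands for is not known. The independence of replicates 1 and 2 could thus not be checked here. Of the 9 arms, 7 to 8 had at least 1 count in the control libraries and 8 to 9 in the RUNX1 libraries. The erythroid microRNAs miR-451a, miR-144-3p, miR-144-5p and miR-486-5p, which mark the lineage of this cell line, were detected in all 6 libraries.

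The mature 5p sequences are shown first because all 4 share 1 seed, written in capitals, and differ only behind it. The RefSeq sequences (GRCh38.p14) were, 5′ to 3′:
miR-181a-5p: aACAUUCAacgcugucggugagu
miR-181b-5p: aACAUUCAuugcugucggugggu
miR-181c-5p: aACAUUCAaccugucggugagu
miR-181d-5p: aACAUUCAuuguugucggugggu
Counted from 1 at the 5′ end, miR-181b-5p and miR-181d-5p differed by C12U alone (95.65% identity). From miR-181a-5p to miR-181b-5p the substitutions were A9U, C10U and A21G (86.96% identity). Removal of G11 from miR-181a-5p gave miR-181c-5p, which is 22 nt long where the other 5p arms have 23. Outside the family 1 other mature human microRNA in the reference had this seed, miR-4262, and it had 0 counts in all 6 samples.

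The 3p sequences are shown because they tell the loci apart. Their seeds, again in capitals, all differed from each other:
miR-181a-3p: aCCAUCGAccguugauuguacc
miR-181a-2-3p: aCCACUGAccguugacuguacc
miR-181b-3p: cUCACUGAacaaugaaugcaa
miR-181c-3p: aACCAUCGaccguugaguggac
miR-181d-3p: cCACCGGGggaugaaugucac
miR-181a-3p and miR-181a-2-3p were 86.36% identical, with the substitutions U5C, C6U and U16C, the first pair of them inside the seed. The seed of miR-181b-3p was shared by miR-181b-2-3p, not analysed here, and by miR-4420, which was not of the family. miR-4420 had 21, 83 and 84 counts with the empty vector and 11, 5 and 59 counts with RUNX1, with RUNX1 replicate 3 far above the other RUNX1 libraries. Its log2 fold change of -1.67 (SE 0.697) did not pass the test (edgeR quasi-likelihood test, Benjamini-Hochberg, adjusted p = 0.0654). Whether it passed depended on the method and on that library. With all libraries it passed by DESeq2 (adjusted p = 0.0364) and, by edgeR, with library size alone (adjusted p = 0.0272). It also passed with TMM on microRNAs, with a replicate block and without a count filter, but not with RLE factors (adjusted p = 0.0625, edgeR). Without RUNX1 replicate 3 it was -3.44 (SE 0.306, adjusted p = 4.33e-11, edgeR).

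In GENCODE 29 (GRCh38), MIR181C (chr19:13874699-13874808, plus strand) and MIR181D (chr19:13874875-13875011, plus strand) lie 66 bases apart in an intron of NANOS3. MIR181A1 (chr1:198859044-198859153, minus strand) and MIR181B1 (chr1:198858873-198858982, minus strand) lie 61 bases apart in an intron of the long non-coding host MIR181A1HG. MIR181A2 (chr9:124692442-124692551, plus strand) and MIR181B2 (chr9:124693710-124693798, plus strand) lie 1158 bases apart in introns of MIR181A2HG and, on the opposite strand, of NR6A1. Both miR-181a hairpins release the same 5p arm, while each 3p arm belongs to 1 hairpin. They are shown, with both arms in capitals, because the data differed most between these 3p arms:
MIR181A1: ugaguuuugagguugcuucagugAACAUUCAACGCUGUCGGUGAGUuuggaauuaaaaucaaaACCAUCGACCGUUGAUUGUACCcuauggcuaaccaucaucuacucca
MIR181A2: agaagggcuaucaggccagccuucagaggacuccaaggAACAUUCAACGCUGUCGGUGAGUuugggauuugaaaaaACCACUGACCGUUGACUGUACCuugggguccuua
The 5p arm spans bases 24 to 46 and the 3p arm bases 64 to 85 of the MIR181A1 hairpin. In the MIR181A2 hairpin they span bases 39 to 61 and 77 to 98.

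Upon RUNX1 over-expression 5 of the 9 arms were up-regulated, miR-181a-3p by far the most, followed by miR-181c-5p, miR-181c-3p, miR-181b-5p and miR-181d-5p. The 3p arm of the chromosome 9 hairpin, miR-181a-2-3p, had an adjusted p under 0.05 at a fold change below the threshold. The other 3 arms, miR-181a-5p, miR-181b-3p and miR-181d-3p, had too few counts to enter the test. In RNA of a whole culture, more cells with an arm and more of the arm per cell cannot be told apart. Called were small RNAs with an adjusted p under 0.05 (edgeR quasi-likelihood test, Benjamini-Hochberg adjustment over all 947 small RNAs tested) and a change of 0.5 or more on the log2 scale in either direction. By this rule 26.7% of all tested small RNAs and 31.9% of the tested microRNAs were up-regulated. The family had 5 calls up among its 6 tested arms. It had 0 calls down by edgeR, and also 0 at an unadjusted p under 0.05 and 0 by DESeq2, where 27.9% of all tested small RNAs were down-regulated by edgeR. The median log2 fold change was 1.95 over the 6 tested arms, -0.064 over all tested small RNAs and 0.11 over the 598 tested microRNAs. miR-181a-3p passed the count filter only through the RUNX1 group, so this median and count describe the arms that could be tested and not the family. In each of the 6 tested arms, miR-181a-3p among them, all RUNX1 samples lay above all control samples in TMM-scaled CPM. This held for 31.4% of all tested small RNAs. For miR-181a-2-3p it depended on the scaling, as its log2 fold change by library size alone was -0.25 (SE 0.134).

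**Figure D1:**
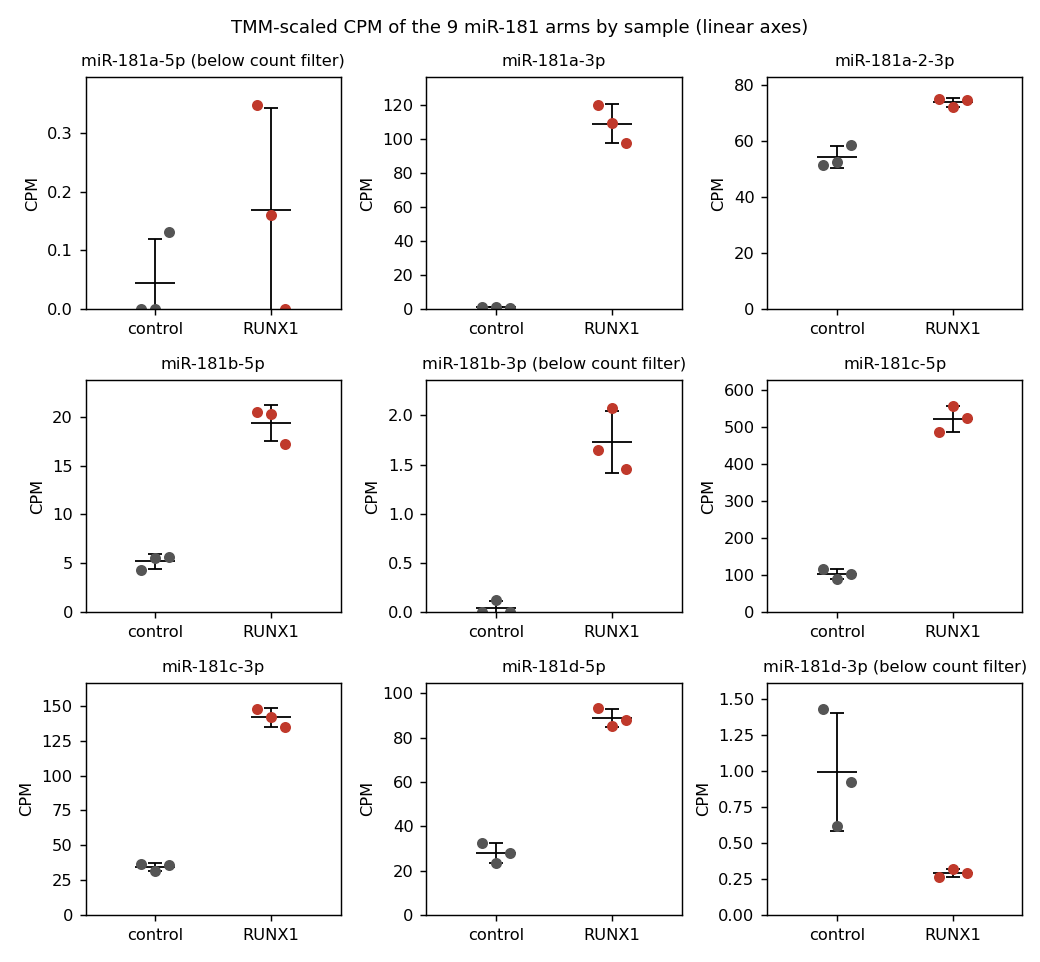
CPM (counts scaled to a common library size with TMM) of the 9 miR-181 arms, each on its own linear axis, with 1 point per sample, the group mean as a long line and the SD as error bars (n = 3 each, bars below 0 not drawn). miR-181a-3p lay at 0.921 to 1.43 CPM with the empty vector and at 97.7 to 120 CPM with RUNX1, while miR-181a-2-3p lay at 51.6 to 58.7 and 72.1 to 75.0 CPM.

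Together, the arms of the chromosome 19 pair held most of the family counts in both groups, with the counts of miR-181a-5p and miR-181b-5p uncertain as given below. miR-181c-5p, a guide with the family seed, had 242, 714 and 776 counts with the empty vector and 5601, 3473 and 3581 counts with RUNX1. Scaled to library size with TMM, these were 116, 88.6 and 102 CPM with the empty vector and 486, 555 and 522 CPM with RUNX1. The groups were far apart, and RUNX1 replicate 1, the deepest library, was the lowest of its group. miR-181c-5p rose from 102 ± 13.6 to 521 ± 34.9 CPM (SD, 3 samples each), a log2 fold change of 2.36 (SE 0.148, 95% confidence interval 2.02 to 2.69, adjusted p = 2.64e-06, edgeR). It moved from rank 134 to rank 82 among the microRNAs by mean CPM.

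The opposite arm of this hairpin, miR-181c-3p, had 76, 252 and 270 counts with the empty vector and 1708, 889 and 925 counts with RUNX1. Its level was 36.3, 31.3 and 35.5 CPM with the empty vector and 148, 142 and 135 CPM with RUNX1, with narrow groups that did not overlap. The rise was 4.14-fold, with a log2 fold change of 2.05 (SE 0.134, adjusted p = 2.98e-06, edgeR). In the neighbouring hairpin, miR-181d-5p had 68, 187 and 212 counts with the empty vector and 1077, 533 and 602 counts with RUNX1. Its level was 32.5, 23.2 and 27.9 CPM with the empty vector and 93.4, 85.2 and 87.8 CPM with RUNX1, again without overlap. miR-181d-5p rose 3.24-fold (log2 fold change 1.70, SE 0.157, adjusted p = 2.42e-05, edgeR). Its other arm, miR-181d-3p, stayed at a few reads, with 3, 5 and 7 counts with the empty vector and 3, 2 and 2 counts with RUNX1. In CPM it was at 1.43, 0.620 and 0.921 with the empty vector and at 0.260, 0.320 and 0.292 with RUNX1, so that all RUNX1 samples lay below the control samples, as did 33.5% of all tested small RNAs. The summed counts of 15 and 7 gave a ratio of 0.336 with a 95% counting interval of 0.116 to 0.876, and fitted without a count filter the arm did not pass (adjusted p = 0.198, edgeR).

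The locus-specific arm of MIR181A1 on chromosome 1, miR-181a-3p, had the highest fitted fold change of the tested arms, and it entered the test only through its counts with RUNX1. It had 3, 11 and 7 counts with the empty vector and 1389, 684 and 670 counts with RUNX1. In CPM it lay at 1.43, 1.36 and 0.921 with the empty vector and at 120, 109 and 97.7 with RUNX1. Control libraries thus held this arm at or a few reads above the floor, and every RUNX1 library held it at a level above that of miR-181d-5p. From 1.24 ± 0.278 to 109 ± 11.3 CPM (SD, 3 samples each) it rose 90.7-fold, a log2 fold change of 6.50 (SE 0.221, 95% confidence interval 6.003 to 7.003, adjusted p = 1.33e-07, edgeR). The summed counts of 21 and 2743 gave a ratio of 94.1 with a 95% counting interval of 61.4 to 152. This interval covers counting error only, yet it was wider than the fitted confidence interval, which thus overstates the precision for this arm. By mean CPM the arm was at rank 596 of the microRNAs with the empty vector and at rank 148 with RUNX1.

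The 3p arm of the adjacent hairpin, miR-181b-3p, had 0, 1 and 0 counts with the empty vector and 19, 13 and 10 counts with RUNX1. In the RUNX1 samples it reached 1.65, 2.08 and 1.46 CPM, above every control sample, but it did not pass the count filter. The summed counts were 1 with the empty vector and 42 with RUNX1, a ratio of 30.3 with a 95% counting interval of 5.14 to 1223. Fitted without the count filter, its log2 fold change was 4.61 (SE 0.893, adjusted p = 2.89e-06, edgeR), a size that depends on the prior count. With the filter it was tested only when a control library was left out, and then only through its RUNX1 counts. Its log2 fold change was 4.47 without control replicate 1, 6.57 without control replicate 2 and 3.92 without control replicate 3. Both 3p arms of the chromosome 1 pair together had 1.28 ± 0.313 CPM with the empty vector and 111 ± 11.5 CPM with RUNX1 (SD, 3 samples each).

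On chromosome 9, miR-181a-2-3p, the 3p arm of the other miR-181a hairpin, had 108, 423 and 446 counts with the empty vector and 865, 451 and 512 counts with RUNX1. This was 51.6, 52.5 and 58.7 CPM with the empty vector and 75.0, 72.1 and 74.7 CPM with RUNX1. The groups did not overlap, but the difference was the smallest of the 6 tested arms. The log2 fold change of 0.44 (SE 0.127, 95% confidence interval 0.16 to 0.73, adjusted p = 0.0142, edgeR) was below the threshold of 0.5, so it was not called. By library size alone, without TMM, the value turned to -0.25 (SE 0.134, adjusted p = 0.122, edgeR), and with TMM on microRNAs it was 0.25 (SE 0.127, adjusted p = 0.115, edgeR).

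**Figure D2:**
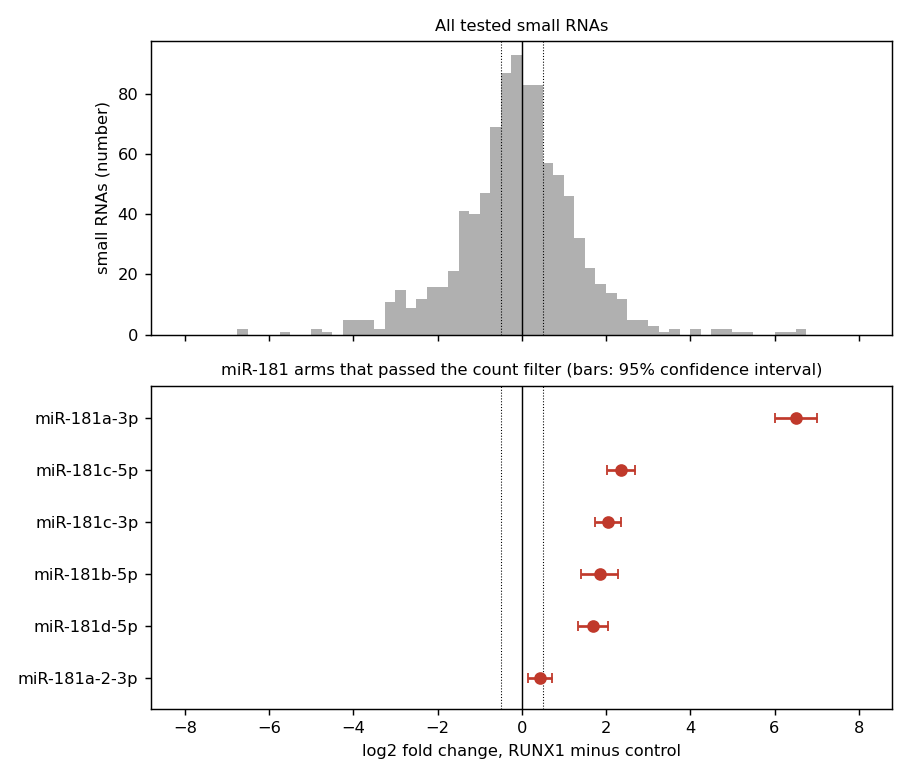
Log2 fold change (RUNX1 minus control), as a histogram over the 947 tested small RNAs (top, number of small RNAs) and for the 6 tested miR-181 arms with their 95% confidence intervals (bottom), with dotted lines at the threshold of 0.5 in size. miR-181a-3p stood at 6.50, 4 arms between 1.70 and 2.36, and miR-181a-2-3p at 0.44. The interval drawn for miR-181a-3p is narrower than its counting interval and overstates the precision.

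The 5p arms made from hairpins on both chromosome 1 and chromosome 9 had low counts. miR-181b-5p had 9, 45 and 43 counts with the empty vector and 236, 127 and 118 counts with RUNX1, or 4.30, 5.58 and 5.66 CPM against 20.5, 20.3 and 17.2 CPM. The groups did not overlap, and the level rose 3.60-fold (log2 fold change 1.85, SE 0.193, adjusted p = 4.56e-05, edgeR). miR-181a-5p, otherwise the best known arm of the family, had 0, 0 and 1 counts with the empty vector and 4, 1 and 0 counts with RUNX1. The summed ratio of 3.60 had a 95% counting interval of 0.403 to 170, and no difference was detectable from so few counts. Over all libraries its 6 counts stood against 2764 counts of miR-181a-3p and 2805 counts of miR-181a-2-3p, the arms opposite to it in its hairpins.

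How reads that match more than 1 hairpin were counted is not given in the sources used here, so the miR-181a-5p count cannot be read as a low level, and the miR-181b-5p count is uncertain in the same way. Mature sequences found in only 1 hairpin reached a mean of at least 1 CPM in 534 of 2128 entries (25.09%), and those found in 2 or more hairpins in 17 of 134 entries (12.69%). Other such arms were also near the floor, with 20 counts over all 6 libraries for miR-24-3p and 3 for miR-125b-5p, although miR-92a-3p had 982584 counts. Among 27 hairpins with a shared arm, an arm of their own and at least 100 counts, the shared arm was the lower one in 12 (44.4%). The 12 include MIR181A1 and MIR181A2, and the 27 include MIR181B1. A shared arm could enter with more than 1 hairpin, as miR-181a-5p did. Since miR-181b-5p also differs from miR-181d-5p by 1 base, reads of these arms may have been split.

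Ratios of arms within a library do not depend on the scaling between libraries. They were computed as the log2 of counts with 0.5 added to each count, and with 3 samples against 3 the two-sided exact permutation test cannot go below p = 0.1 (0.117 adjusted over the 7 ratios by Benjamini-Hochberg). The largest upward shift was between the 3p arms of the miR-181a hairpins. The log2 ratio of miR-181a-3p to miR-181a-2-3p was -4.95, -5.20 and -5.90 with the empty vector and 0.68, 0.60 and 0.39 with RUNX1, a difference of 5.91 (exact permutation p = 0.1), and of 5.99 without RUNX1 replicate 3. In control the chromosome 9 arm was the more abundant of both, and in all 3 RUNX1 samples the chromosome 1 arm was.

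Both arms of MIR181C changed by similar factors. The log2 ratio of miR-181c-5p to miR-181c-3p was 1.66, 1.501 and 1.52 with the empty vector and 1.71, 1.97 and 1.95 with RUNX1, a difference of 0.31 (exact permutation p = 0.1). For MIR181D the log2 ratio of the 5p to the 3p arm was 4.74 ± 0.408 with the empty vector and 7.97 ± 0.269 with RUNX1 (SD, 3 samples each; exact permutation p = 0.1), resting on 2 to 7 counts of miR-181d-3p per library. Between the guides of both chromosome 19 hairpins, miR-181c-5p gained over miR-181d-5p, with a log2 ratio of miR-181c-5p to miR-181d-5p of 1.87 ± 0.0533 with the empty vector and 2.55 ± 0.163 with RUNX1 (SD, 3 samples each; exact permutation p = 0.1). The log2 ratio of miR-181b-5p to miR-181c-5p, -4.27 ± 0.363 with the empty vector and -4.75 ± 0.176 with RUNX1 (SD, 3 samples each), overlapped between the groups (exact permutation p = 0.2). For miR-181b-5p to miR-181b-3p it was 5.20 ± 1.12 and 3.45 ± 0.186 (SD, 3 samples each; exact permutation p = 0.1), and for miR-181a-5p to miR-181a-3p -3.22 ± 1.16 and -9.16 ± 1.097 (SD, 3 samples each; exact permutation p = 0.1), both with arms at 0 or 1 count in control. Ratios that hold miR-181a-5p or miR-181b-5p use counts that are uncertain as given above, so they cannot be read as ratios of levels. Without RUNX1 replicate 3 the differences of these 6 ratios kept their direction, with 0.28 for miR-181c-5p to miR-181c-3p, 3.27 for the arms of MIR181D, 0.67 for miR-181c-5p to miR-181d-5p, -0.40 for miR-181b-5p to miR-181c-5p, -1.78 for the arms of miR-181b and -5.33 for miR-181a-5p to miR-181a-3p.

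**Figure D3:**
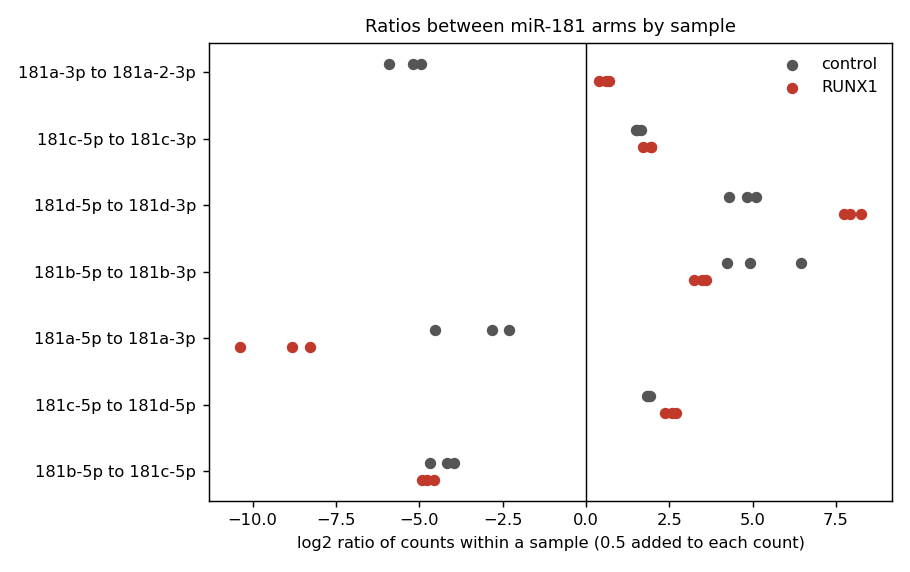
Log2 ratio of the counts of 2 miR-181 arms within a sample (0.5 added to each count), with 1 point per sample, control above and RUNX1 below each line. The ratio of miR-181a-3p to miR-181a-2-3p moved from between -5.90 and -4.95 to between 0.39 and 0.68, and the ratio of miR-181b-5p to miR-181c-5p overlapped between the groups.

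The family took 0.0383, 0.0327 and 0.0347% of the microRNA counts with the empty vector and 0.0779, 0.0795 and 0.0906% with RUNX1. All RUNX1 samples were above all control samples, with a difference of 0.0474 percentage points (exact permutation p = 0.1, two-sided, the smallest p that 3 against 3 allow), or of 0.0434 points without RUNX1 replicate 3. This share is relative to microRNAs of which miR-10a-5p alone took 7.08 to 8.56% with the empty vector and 27.4 to 32.1% with RUNX1. Without miR-10a-5p in the denominator, the share of the family was 0.0382% with the empty vector and 0.118% with RUNX1, a difference of 0.0801 percentage points.

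Within the family the order of the arms by count changed. This order, the shares and the 5p pool use the counts of miR-181a-5p and miR-181b-5p, which are uncertain as given above. The order of the true levels is therefore not known. miR-181c-5p had the most counts in both groups, with 45.1% ± 2.16 of the family counts with the empty vector and 54.5% ± 2.69 with RUNX1 (SD, 3 samples each). miR-181a-2-3p came second in control with 24.1% ± 2.52 and took 7.74% ± 0.375 with RUNX1. miR-181c-3p had 15.2% ± 0.246 with the empty vector and 14.8% ± 0.729 with RUNX1. miR-181d-5p had 12.3% ± 0.993 and 9.30% ± 0.626, and miR-181a-3p had 0.553% ± 0.141 with the empty vector and 11.4% ± 1.19 with RUNX1. In RUNX1 samples miR-181a-3p thus stood next to miR-181c-3p, and its lowest share of 10.4% was above the highest of miR-181d-5p, 9.88%. The pool of 5p arms with the common seed ACAUUCA had, as counted, 135 ± 17.6 CPM with the empty vector against 629 ± 30.7 CPM with RUNX1 (SD, 3 samples each). miR-181c-5p was the largest counted part of it in every library. The arms of both chromosome 19 hairpins summed to 165 ± 21.2 CPM with the empty vector and 752 ± 28.4 CPM with RUNX1 (SD, 3 samples each), a ratio of 4.55 between the means, beside 86.6 for the 3p arms of chromosome 1 and 1.36 for miR-181a-2-3p of chromosome 9.

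The TMM factors were 1.23 to 1.31 with the empty vector and 0.735 to 0.866 with RUNX1, and the size of each change depended on them. Scaling by library size alone shifted the median log2 fold change of all small RNAs by -0.70 and left 18.9% of all calls as up-regulated, against 48.9% with TMM. TMM factors on microRNAs alone shifted the median by -0.19, with 38.9% of the calls up-regulated. The 5 called arms passed under each of the 5 scalings tried, with log2 fold changes by library size alone of 5.80 for miR-181a-3p, 1.66 for miR-181c-5p, 1.35 for miR-181c-3p, 1.15 for miR-181b-5p and 1.00 for miR-181d-5p. Without RUNX1 replicate 3 they were 6.67, 2.45, 2.18, 1.996 and 1.82 in the same order with TMM, and miR-181a-2-3p passed the threshold with 0.52 (adjusted p = 0.000357, edgeR). This arm was also called with RLE factors at 0.52 and by DESeq2 at 0.52.

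**Figure D4:**
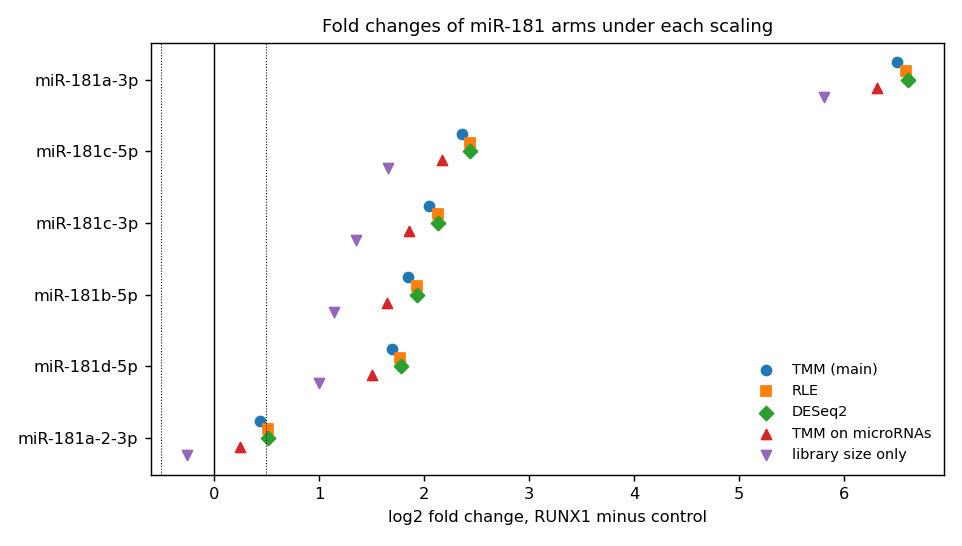
Log2 fold change (RUNX1 minus control) of the 6 tested miR-181 arms under 5 ways of scaling the libraries, each with its own marker, with dotted lines at the threshold of 0.5 in size. The 5 called arms stayed above the threshold, and miR-181a-2-3p lay between -0.25 by library size alone and 0.52.

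Near the chromosome 19 pair lies the cluster of miR-23a, miR-27a and miR-24-2, on the opposite strand and 38039 bases from MIR181C in GRCh38. Of its 6 arms 5 were tested and 4 were up-regulated by edgeR with TMM, with a median log2 fold change of 0.90. By library size alone 2 were up-regulated and 1, miR-27a-5p, was down-regulated, and miR-23a-5p turned to -0.10. With TMM on microRNAs 3 were up-regulated, miR-27a-5p was down-regulated at -0.69 (adjusted p = 0.00297, edgeR) and miR-23a-5p, at 0.40, was not called. miR-23a-3p had 1213, 4718 and 4798 counts with the empty vector and 20813, 11777 and 8671 counts with RUNX1, a log2 fold change of 1.46 (SE 0.167). miR-27a-3p rose by a log2 fold change of 0.90 (SE 0.146), miR-24-2-5p by 1.63 (SE 0.196) and miR-23a-5p by 0.59 (SE 0.150). In the main fit miR-27a-5p had a log2 fold change of -0.498 (SE 0.138, adjusted p = 0.0121, edgeR), which in size lay just under the threshold. It also passed the threshold without control replicate 1. In the main fit the cluster lay below the log2 fold changes of 1.70 to 2.36 of the tested miR-181c and miR-181d arms, at its upper end only just. Without RUNX1 replicate 3 miR-24-2-5p, at 1.89, was above miR-181d-5p, at 1.82. It was also above it without control replicate 2, at 1.63 against 1.56. The difference between the clusters was not tested.

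Among other microRNAs known from blood cells, 11 arms of miR-142, miR-150, miR-155, miR-223, miR-221, miR-222, miR-146a and miR-126, 10 were tested. Of these 7 were up-regulated and 3 down-regulated, with a median log2 fold change of 1.32, and by library size alone 5 and 3. Without control replicate 2 only miR-223-5p of the 3 remained down-regulated. miR-221-3p and miR-146a-5p had log2 fold changes of 4.22 (SE 0.217) and 4.196 (SE 0.167), between those of miR-181c-5p and miR-181a-3p. The 5 microRNAs outside the family whose pattern over the 6 samples was closest to that of miR-181c-5p, by the root mean square difference of centred log2(CPM + 0.5), were miR-222-5p (0.145), miR-29a-3p (0.160), miR-653-5p (0.161), miR-628-5p (0.184) and miR-222-3p (0.188). miR-222-5p had a fitted log2 fold change of 3.70 against 2.36 for miR-181c-5p, and its closeness depends on the 0.5 added to its low control level. The levels differed widely, from 0.374 to 4.61 CPM (control to RUNX1) for miR-222-5p up to 394 to 1984 CPM for miR-29a-3p.

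Markers of other cell types also differed between the groups, where 26.7% of all tested small RNAs were up-regulated and 27.9% down-regulated. Of 10 muscle and mesenchymal microRNA entries, 4 were tested, of which 3 rose and 1 fell, and their summed level was 137 to 144 CPM with the empty vector and 1992 to 2202 CPM with RUNX1. miR-143-3p alone had 18.7 CPM with the empty vector and 1985 CPM with RUNX1. miR-1, among the 3 that rose, had 0, 1 and 0 counts with the empty vector and passed the count filter only through RUNX1. Of the 10 entries 8 had any count, and miR-206 and miR-199a-5p were at 0 in all libraries. Of 6 epithelial microRNAs 4 were tested and 3 rose, with a summed level of 55.8 to 63.6 CPM with the empty vector and 166 to 180 CPM with RUNX1, where miR-205-5p had 0.723 and 70.4 CPM. miR-205-5p also passed the count filter only through RUNX1. Of 5 lymphoid and myeloid microRNAs 4 were tested and 4 were called up, and the summed level was 13824 to 15531 CPM with the empty vector and 37116 to 54021 CPM with RUNX1. Of these miR-155-5p, with 2 to 27 counts per library, was not called by DESeq2 (adjusted p = 0.134) or without RUNX1 replicate 1 or any 1 of the control replicates (adjusted p of 0.0717 to 0.149, edgeR). The erythroid microRNAs summed to 4427 to 5062 CPM with the empty vector and 2332 to 3696 CPM with RUNX1, where miR-144-3p was called up and the other 3 were called down. Only miR-451a remained called down when RUNX1 replicate 1, RUNX1 replicate 2 or any 1 of the control replicates was left out, with adjusted p (edgeR) of 0.0773 to 0.131 for miR-144-5p and of 0.0633 to 0.107 for miR-486-5p. The liver microRNA miR-122-5p stayed between 0.124 and 1.13 CPM, the neural miR-9-5p and miR-9-3p together at or below 0.527 CPM, and miR-124-3p was at 0 in all libraries. By library size alone 2 of the muscle and mesenchymal, 1 of the epithelial and 2 of the lymphoid and myeloid microRNAs were up-regulated, miR-200b-3p of the epithelial ones was down-regulated at -1.12 on the log2 scale, and miR-144-3p, at 0.32, was not called. TMM on microRNAs also called miR-200b-3p down, at -0.60. The part of these markers in the miR-181 values was not tested. The library names carry 1 letter for control and another for RUNX1, and if a letter stands for a preparation, the preparation cannot be told apart from the vector.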

How the data were processed

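Small RNA libraries (TruSeq Small RNA kit) were made from K562 cells, 3 samples per group. The authors demultiplexed with CASAVA 1.8.2 and used the OASIS platform, and the submitters' processing notes name hg19. The deposited values are whole-number counts per small RNA without normalization. The aligner and how multi-mapped reads were treated are not given in the sources used here. Groups and replicate numbers came from the titles.

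Counts were analysed in R 4.3.3 with edgeR 4.0.16 and limma 3.58.1 (filterByExpr, minimum count 10, minimum total count 15; TMM; glmQLFit and glmQLFTest, group as the only term). P-values were adjusted by Benjamini-Hochberg over 947 small RNAs, and each SE was taken as |log2 fold change| over the square root of F. Confidence intervals of the fits were built from this SE and are approximate. The biological coefficient of variation was 0.181. Calls needed an adjusted p under 0.05 and a log2 fold change of 0.5 or more in size. Total counts of 1618248 to 15245007 limit what low arms can show, and counting intervals cover counting error only. The scripts were tested on simulated data. DESeq2 1.42.0, other scalings, filters, a replicate block, a pseudocount of 1 and each replicate left out were alternatives.

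Named are all 9 arms, the nearby cluster, arms of equal seed, the cell type markers, the hematopoietic list, multi-hairpin examples, the most abundant microRNA and the 5 closest patterns. The members and lists were chosen with earlier results of these data known. Sequences are from RefSeq and loci from GENCODE 29, both on GRCh38, matched by microRNA name for all 9 arms.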

Additional observations from a re-analysis of the deposited data

How the results depend on the processing

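The number of up-regulated miR-181 arms was 5 to 7 over 14 of 15 alternatives and 3 when at least 10 counts were required in every sample, where miR-181a-3p and miR-181b-5p were not tested. It was 5 to 7 when 1 replicate was left out, and without control replicate 3 it was 7. With a control replicate left out the number included miR-181b-3p. This arm had 0, 1 and 0 control counts and passed the filter only through RUNX1. The number of down-regulated arms was 0 under all 15. miR-181d-3p, which lay below control in all RUNX1 samples, was tested only without a count filter, so the other alternatives could not call it. Over the alternatives in which they were tested, miR-181a-3p had log2 fold changes of 5.80 to 6.67, miR-181c-5p of 1.66 to 2.47, miR-181c-3p of 1.35 to 2.18, miR-181b-5p of 1.15 to 1.996 and miR-181d-5p of 1.00 to 1.82, and each stayed called. miR-181a-2-3p turned to -0.25 by library size alone (adjusted p = 0.122, edgeR), but passed the threshold without a count filter (0.53) and without control replicate 3 (0.52), RUNX1 replicate 2 (0.51) or RUNX1 replicate 3 (0.52). Its adjusted p (edgeR) was 0.115 with TMM on microRNAs, 0.0509 without control replicate 1 and 0.0735 without control replicate 2.

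By library size alone 118 small RNAs were up-regulated and 505 down-regulated, while the stricter threshold of 1 on the log2 scale left 168 up-regulated. With 1 replicate left out, 223 to 306 were up-regulated and 235 to 298 down-regulated. The difference in the family share was 0.0801 percentage points without miR-10a-5p in the denominator. The log2 ratio of miR-181b-5p to miR-181b-3p differed by -1.76 between the groups (exact permutation p = 0.1), and by -1.04 with 1 added to each count (exact permutation p = 0.3). Its size and p-value thus depended on the value added to low control counts. Same-numbered samples of both groups showed no shared deviation (correlations of -0.0283, -0.0834 and 0.0238). With 3 samples per group this cannot show whether they were paired. With the replicate number as a block, 5 arms were up-regulated and miR-181a-2-3p had 0.45, beside 243 small RNAs up-regulated and 263 down-regulated. miR-181a-5p, miR-181b-3p and miR-181d-3p had at most 19 counts in any library, which limits what their counts can show.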
